A study of Mus musculus with 8 samples.

Results

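Layer 5 pyramidal tract (L5PT) neurons of the mouse primary visual cortex (V1) were taken as the nuclei that the deposited annotation calls L5PT, which were 3162 of 102330 nuclei in the series. L5PT neurons are the large, thick-tufted pyramidal cells whose axons leave the cortex for targets such as the superior colliculus, thalamus, pons and spinal cord. During development the transcription factor Fezf2 acts through Bcl11b (also called Ctip2) to set this projection identity. Mature cells of this kind are known for a strong hyperpolarization-activated (HCN) current in the apical dendrite and for burst firing that depends on calcium channels.

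Nuclei came from V1 of mice at P21, and every mouse carried floxed alleles of Nr3c1, the gene of the glucocorticoid receptor (GR), and a virus given in the first day or so of life. The viral construct was driven by GfaABC1D, a promoter chosen for astrocytes. It encoded Cre with EGFP in the GR-KO groups and an inactive ΔCre with EGFP in the GR-Con groups. The mice were kept in normal light (NR) or in darkness until collection (DR). Each of the 4 groups (either genotype under either rearing) held 2 libraries, 1 from a male and 1 from a female mouse, so that every test below rests on the spread between these few animals and sex is part of that spread. The recombined allele was meant for astrocytes, and the sort kept nuclei positive for DRAQ5 and negative for GFP. According to the study's methods, these mice carried EGFP-CAAX, whereas its sorts of GFP-positive astrocyte nuclei used EGFP-KASH, which targets the nuclear membrane. EGFP RNA was still highest in astrocyte nuclei among all annotated types, so the sort is not taken to have removed transduced cells. The genotype contrasts in L5PT neurons thus compare neurons of mice given Cre or ΔCre under an astrocyte promoter.

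L5PT libraries held 384 to 504 nuclei, with 1 exception. The female NR GR-KO library held 59. Summed over its L5PT nuclei, a library had between 2700595 UMIs (NR GR-KO female) and 16895596 UMIs, and these sums were the counts that entered the tests. L5PT nuclei had the highest median depth of the 20 annotated types, at 29199 UMIs against 25050 in the next type, L6b. Of 3160 distinct L5PT barcode sequences, 2 occurred in more than 1 library. Levels are given in CPM, the counts of the L5PT sum scaled to a common total per library, always in the order male, female.

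Marker levels describe the L5PT nuclei and do not test their label, because the types were clustered and annotated from the same RNA. Lratd2, the current symbol of the marker Fam84b, stood at 8.65 ± 2.11 CPM (SD, n = 8 libraries) and was higher in L5PT than in the other 19 types, with astrocytes next at 2.65 CPM. Bcl11b stood at 247 ± 40.4 CPM, second to 258 CPM in the near-projecting type L5NP. Fezf2 at 48.3 ± 3.92 CPM was also second to L5NP, at 73.1 CPM. Npr3, a natriuretic peptide receptor, was highest in L5PT at 113 ± 18.3 CPM. Stac, an adaptor of voltage-gated calcium channels, had 134 ± 32.6 CPM in L5PT and 1.86 CPM in the next excitatory type, L2/3. It was picked from these data for having the largest such ratio (71.9) among genes of at least 20 CPM in L5PT. Slc17a7, the vesicular glutamate transporter of cortical excitatory neurons, was at 121 ± 15.3 CPM, whereas the GABA-synthesis genes Gad1 and Gad2 were at 1.45 and 1.85 CPM. The markers Parm1 (234 ± 88.8 CPM) and Pou3f1 (18.3 ± 5.3 CPM) were highest in other types.

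The female NR GR-KO library stood apart in number, depth and marker content. L5PT made up 0.62% of its nuclei, against 3.08% to 3.75% in the other 7 libraries. Its L5PT nuclei had a median of 47155 UMIs, against 24317.5 to 34118 elsewhere, and 16.9% of them exceeded 60000 UMIs, against 0% to 1.32%. Its other excitatory nuclei were also the deepest, with a median of 34249 UMIs. L5NP made up 1.04% of its nuclei, against 1.44% to 1.90% in the others, and L5IT 2.68%, against 2.79% to 4.56%. Tshz2, a gene that marks L5NP, stood at 5.55 CPM in its L5PT nuclei and at 54.1 to 133 CPM in the others, and Stac at 61.5 CPM against 120 to 159. Krt80, a keratin gene of an L5PT subtype, showed the opposite, with 22 UMIs or 8.15 CPM (Poisson 95% interval 5.11 to 12.3, counting error only) against 1.01 to 2.57 CPM elsewhere. The prostaglandin receptor gene Ptgfr had 0 UMIs there, which allows up to 1.37 CPM. The count of calls without this library is therefore given for each comparison that uses it.

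No difference in the share of L5PT nuclei was called. In NR it was 3.27 ± 0.131% in GR-Con and 2.19 ± 2.21% in GR-KO (SD, n = 2 libraries each; log2 fold change -0.58, SE 0.87, edgeR quasi-likelihood test, Benjamini-Hochberg adjusted p = 0.973; exact permutation test, two-sided p = 1, smallest possible 0.333). Without the female NR GR-KO library the log2 fold change was 0.20, and without the male one it was -2.40. Over all 8 libraries, DR libraries held 3.30 ± 0.268% and NR libraries 2.73 ± 1.42% (n = 4 each; log2 fold change 0.30, SE 0.50, edgeR quasi-likelihood adjusted p = 0.998; exact permutation test, two-sided p = 0.771, smallest possible 0.0286). Without the female NR GR-KO library this log2 fold change was -0.061.

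**Figure D1:**
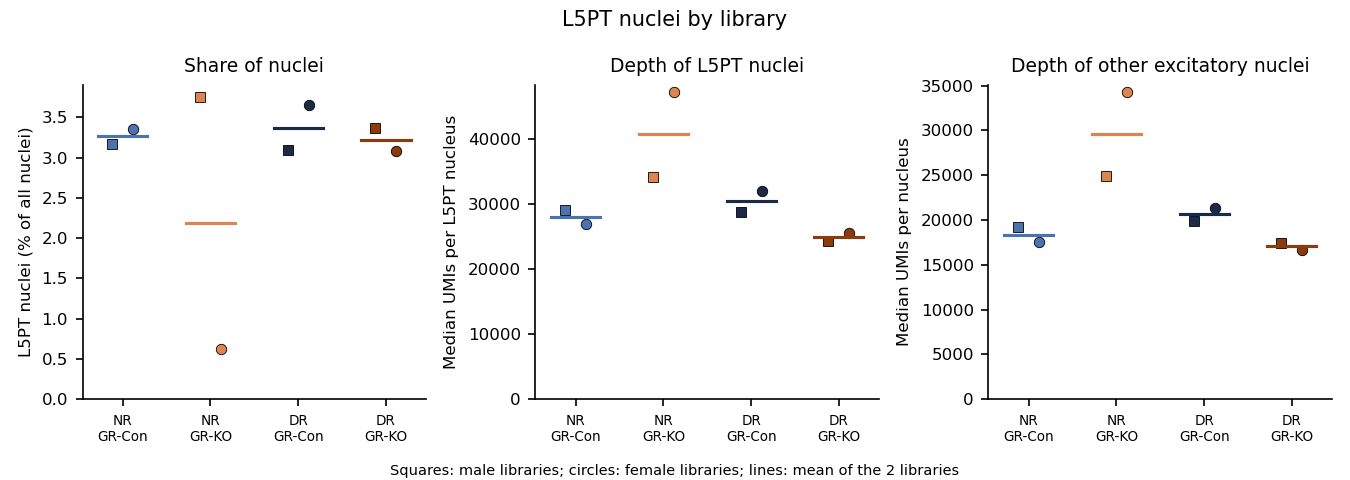
Share of L5PT nuclei among all nuclei of a library (percent), median UMIs per L5PT nucleus and median UMIs per nucleus of the other excitatory types, with 1 point per library (squares male, circles female) in the 4 groups. The female NR GR-KO library lies at 0.62% and 47155 UMIs, away from the other 7 libraries.

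Vector RNA and Nr3c1 were read in L5PT nuclei before the comparisons. Cre had 0 UMIs in the 4 GR-Con libraries, where 3 counts would be 0.178 to 0.238 CPM, and stood at 2.90 and 1.11 CPM (46 and 3 UMIs) in NR GR-KO and at 0.715 and 1.54 CPM (7 and 18 UMIs) in DR GR-KO. All 4 GR-KO libraries thus held Cre UMIs and no GR-Con library did. A Cre UMI was found in 63 of 1325 L5PT nuclei of GR-KO, 41 of these in NR GR-KO male, and in 0 of 1837 of GR-Con. Cre made in neurons, Cre RNA from other cells and an effect of astrocytes cannot be told apart here. The feature for the inactive form, delCre, did not follow the labels in the same way, with 2, 6, 1 and 3 UMIs in the GR-Con libraries and 64, 2, 9 and 9 UMIs in the GR-KO libraries (0.0713 to 0.469 CPM and 0.741 to 4.03 CPM). The highest delCre value, that of NR GR-KO male, was close to the astrocyte mean of 4.19 CPM, and why delCre was higher in GR-KO was not tested, so that delCre was not read as a check of the labels. Averaged over the 8 libraries, Cre was at 0.784 CPM in L5PT (including the 4 GR-Con libraries with 0), rank 9 of 20 types, and at 3.84 CPM in astrocytes. Nr3c1 itself ranged from 146 to 198 CPM in L5PT nuclei (171 ± 18.6 CPM, n = 8) and was not called in any comparison. Its log2 fold change between GR-KO and GR-Con in NR was -0.10 (edgeR likelihood ratio test, Benjamini-Hochberg adjusted p = 0.997). Of the 13 tested genes of a list of GR and its classical targets, such as Fkbp5 and Tsc22d3, 0 were called by genotype in NR or in DR with the likelihood ratio test, the quasi-likelihood test or DESeq2, with 1 and 2 at an unadjusted p under 0.05. Of all genes, the likelihood ratio test called 1.44% in NR, 0.411% in DR and 3.6% by rearing in GR-Con, so that few calls among 13 genes say little about this list. By genotype it put 1287 of 14577 genes in NR and 918 of 14585 in DR at an unadjusted p under 0.05. By rearing, 1 of the 13 was called in GR-Con: Tsc22d3, a leucine zipper gene induced by glucocorticoids, stood at 3.41 and 2.27 CPM in NR and 0.93 and 1.01 CPM in DR (-1.55, edgeR likelihood ratio adjusted p = 0.00535), and this call was lost without NR GR-Con male. The quasi-likelihood test and DESeq2 called 0 of the 13 by rearing in GR-Con.

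The first comparison asked what darkness changed in L5PT neurons, with 4 DR libraries against 4 NR libraries and genotype as a term. Of 14711 genes tested, 274 were higher and 297 lower in DR (3.88% called; edgeR likelihood ratio test, Benjamini-Hochberg adjusted p under 0.05). The quasi-likelihood test, which lets the spread vary more between genes, called 17 higher and 18 lower, and DESeq2 241 and 180. Genes of neuronal activity that were called all fell in DR, and 2 calcium channel genes and a calcium-activated potassium channel gene were among those that rose. The list counts below are to be read against the 3.88% of all genes called. Counts at an unadjusted p under 0.05 are to be read against 2375 of all 14711 genes (likelihood ratio test). Leaving out 1 library gave 179 (NR GR-Con male), 183 (DR GR-KO male), 339 (NR GR-Con female) or 363 (DR GR-Con female) calls, and 472 to 644 without 1 of the other 4. Without the female NR GR-KO library there were 472, of which 397 were among the 571.

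Activity-regulated genes were led by Vgf, which encodes a secreted neuropeptide precursor and lies at chr5:137026392-137033351 (GRCm38). Vgf stood at 9.13 and 9.61 CPM in NR GR-Con and at 12.9 and 8.52 in NR GR-KO, against 2.78 and 4.14 in DR GR-Con and 2.96 and 4.46 in DR GR-KO. Calls without overlap between rearings were common (218 of 290 with a mean log2 CPM of at least 4, outside chromosomes X and Y). For Vgf, too, every NR library was above every DR library. Its log2 fold change was -1.5 (SE 0.19, edgeR likelihood ratio adjusted p = 5.7e-11; quasi-likelihood adjusted p = 0.0285), and the call was kept in all 15 alternative settings. Npas4, an activity-induced transcription factor gene at chr19:4984355-4990316, stood at 11.4 and 10.9 CPM in NR GR-Con, 16.6 and 8.15 in NR GR-KO, 3.28 and 6.69 in DR GR-Con and 6.84 and 4.97 in DR GR-KO (log2 fold change -1.15, SE 0.24, edgeR adjusted p = 0.000544). Here too the groups did not overlap. Scg2 (secretogranin II, a granule protein; chr1:79434669-79440120) stood at 8.89 and 5.86, then 9.64 and 8.89 CPM in NR, and at 3.28 and 4.79, then 3.37 and 3.26 CPM in DR (log2 fold change -1.14, SE 0.22, edgeR adjusted p = 9.13e-05). Npas4 and Scg2 missed the threshold with the quasi-likelihood test (adjusted p = 0.0778 and 0.0565), with equal numbers of nuclei per library and among nuclei of 30000 to 60000 UMIs.

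Osbpl3, which encodes an oxysterol-binding lipid transfer protein (chr6:50293330-50456201), had the steepest fall among abundant genes of this group. It stood at 538 and 541 CPM in NR GR-Con and 453 and 234 CPM in NR GR-KO, and at 111 and 129 CPM in DR GR-Con and 203 and 145 CPM in DR GR-KO. The lowest NR value, that of the female NR GR-KO library, was above the highest DR value. Its log2 fold change was -1.58 (SE 0.28, edgeR likelihood ratio adjusted p = 1.56e-05; quasi-likelihood 0.0535). Dusp6, a phosphatase that acts on ERK (chr10:99263231-99267489), stood at 5.48, 5.55, 7.94 and 5.92 CPM in NR and at 2.43, 4.50, 1.43 and 2.49 CPM in DR (log2 fold change -1.20, SE 0.31, edgeR adjusted p = 0.00844). The Dusp6 call was lost without the male NR GR-KO or the male DR GR-KO library. Bdnf, a neurotrophin gene, did not pass (log2 fold change -0.74, edgeR adjusted p = 0.0595).

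The classical immediate early genes were low in L5PT nuclei and were not called. Fos stood at 1.27 and 1.09 CPM in NR GR-Con, 8.32 and 0 in NR GR-KO, 0.642 and 1.24 in DR GR-Con and 1.33 and 1.97 in DR GR-KO (log2 fold change -0.89, edgeR adjusted p = 0.53). The 1 high value came from the male NR GR-KO library, which was also highest for Arc (15.0 CPM, against 0.741 to 3.86 elsewhere) and Egr1 (25.4 CPM, against 5.00 to 9.35). Of 18 immediate early genes tested, 1 fell (Npas4) and 17 were not called (5.56% called, against 3.88% of all genes tested). The median log2 fold change of the list was -0.48, against -0.0053 for all genes tested, and it was 0.06 without the male NR GR-KO library. Of 21 late activity-regulated genes, 4 fell (Vgf, Osbpl3, Scg2, Dusp6), with a list median of -0.40 that became -0.18 without that library.

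**Figure D2:**
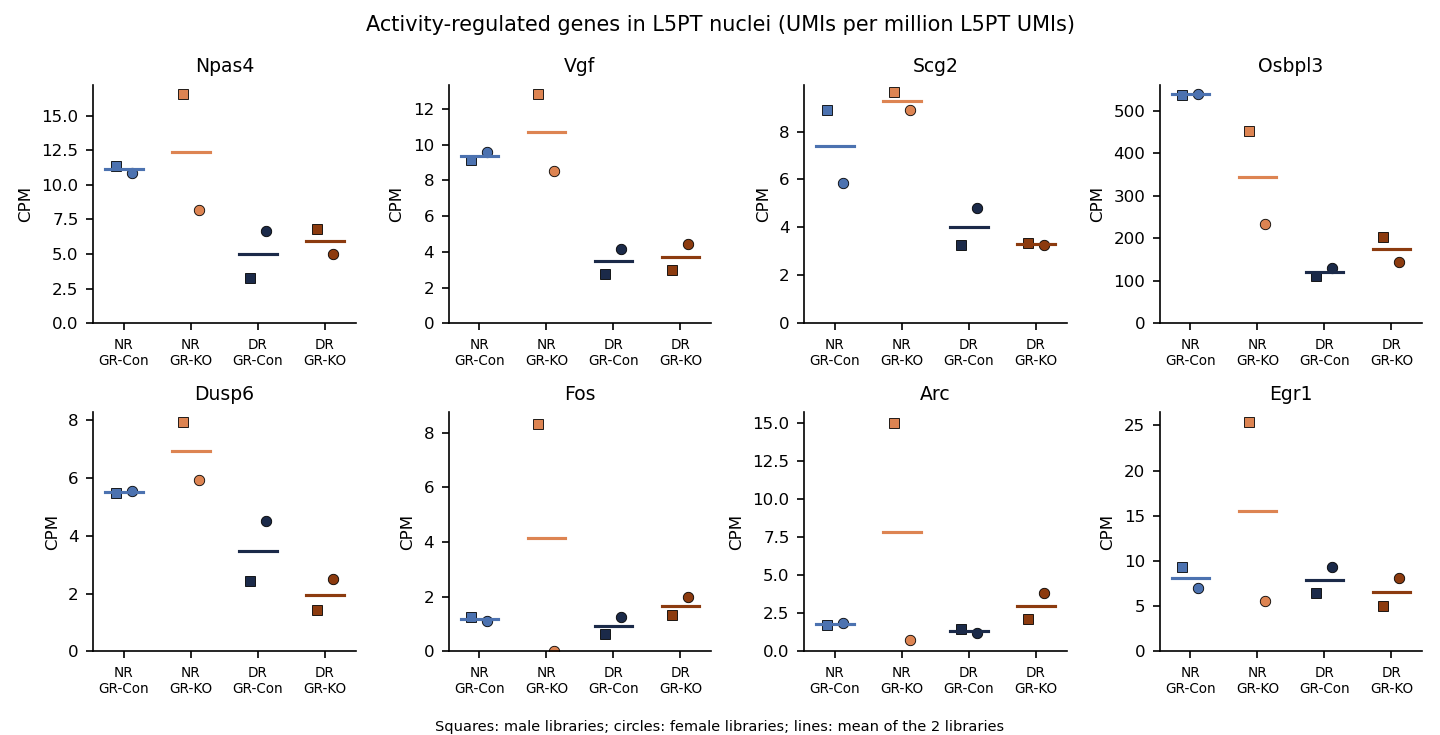
Levels in CPM of 8 activity-regulated genes in the L5PT sum of each library (squares male, circles female; lines, mean of the 2 libraries of a group). Vgf, Npas4, Scg2, Osbpl3 and Dusp6 lie higher in all NR libraries than in all DR libraries, whereas for Fos, Arc and Egr1 only the male NR GR-KO library stands out, at 8.32, 15.0 and 25.4 CPM.

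The promoters of the fallen activity genes are shown because many activity-regulated genes are known to be driven through the cAMP response element (CRE). The RefSeq sequences of the 250 bases before the start of 3 of these genes (GRCm38.p6, read 5′ to 3′ on the minus strand, which is the coding strand of each) were as follows, with matches to the CRE (TGACGTCA) or its core (TGACG, either strand) in capitals.
Npas4 chr19:4989972-4990221: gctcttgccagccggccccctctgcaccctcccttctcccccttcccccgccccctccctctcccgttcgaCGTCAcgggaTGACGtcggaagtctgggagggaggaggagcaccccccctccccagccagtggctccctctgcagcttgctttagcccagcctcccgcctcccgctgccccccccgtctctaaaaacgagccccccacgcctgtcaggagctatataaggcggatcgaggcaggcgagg
Scg2 chr1:79440027-79440276: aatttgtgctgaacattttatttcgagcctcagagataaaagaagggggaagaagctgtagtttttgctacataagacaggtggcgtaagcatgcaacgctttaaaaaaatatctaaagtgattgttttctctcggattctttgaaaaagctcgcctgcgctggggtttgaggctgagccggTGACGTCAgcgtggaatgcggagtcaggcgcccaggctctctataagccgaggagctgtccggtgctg
Osbpl3 chr6:50456171-50456420: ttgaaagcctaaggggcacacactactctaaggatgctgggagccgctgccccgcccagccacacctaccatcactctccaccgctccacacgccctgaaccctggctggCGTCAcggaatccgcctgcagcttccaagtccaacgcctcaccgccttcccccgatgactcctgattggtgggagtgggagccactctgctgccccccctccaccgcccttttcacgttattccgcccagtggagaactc
Distances were counted from the RefSeq start. The gene ends given above are from GENCODE, which starts these 3 genes farther upstream, so that the Npas4 window lies wholly and the other windows partly inside the GENCODE gene. Scg2 held the full CRE 68 bases before its start. Npas4 held 2 cores, 1 on each strand and pointing away from each other, 179 and 169 bases before the start, and Osbpl3 held 1, at 140 bases. No entry was at hand for Vgf, which was not searched. Dusp6 held no match to either, which says only that these letters are not in this window.

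Over windows of 300 bases (250 before to 50 after the start, both strands), the CRE was in 1.79% and the core, which also lies within the CRE, in 20.8% of 32851 RefSeq promoters. Among 10841 tested genes with a promoter entry the shares were 3.56% and 35.1%. Of 210 genes lower in DR with an entry, 11 (5.24%) held the CRE and 65 (31.0%) the core. Of 202 genes higher in DR, 5 (2.48%) held the CRE and 57 (28.2%) the core. The AP-1 motif TGANTCA, the site of Fos and Jun dimers, was in 5.71% of the former, 5.94% of the latter and 6.05% of the tested genes. These are descriptions of the letters in the windows.

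Some voltage-gated channel genes were called. Of 26 tested genes of HCN, calcium and sodium channels, 3 rose in DR, 0 fell and 23 were not called (11.5% called, against 3.88% of all genes tested). Cacna1c, the pore subunit of an L-type calcium channel, stood between 467 and 477 CPM in the 4 NR libraries (470, 467, 471 and 477), and at 641, 647, 722 and 637 CPM in DR. The NR values lay within 10 CPM of each other and far below those of DR (log2 fold change 0.49, SE 0.10, edgeR adjusted p = 0.000203; quasi-likelihood 0.0371). Cacna1g, the pore subunit of a T-type calcium channel, a channel type tied to bursting, stood at 42.2, 40.3, 50.1 and 58.1 CPM in NR and at 64.1, 62.7, 81.5 and 68.3 CPM in DR (0.56, SE 0.10, edgeR adjusted p = 3.3e-05). Cacnb2, an auxiliary subunit, was the third (0.43, edgeR adjusted p = 0.0311), and its call was lost when any of 6 libraries was left out, the exceptions being DR GR-Con male and DR GR-KO female. Hcn2, an HCN channel subunit, was not called (-0.20, edgeR adjusted p = 0.314).

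Among 31 potassium channel genes, 2 rose and 1 fell (9.68% called, against 3.88% of all genes tested, and 0 with the quasi-likelihood test). Kcnn3, a small-conductance calcium-activated channel that shapes the afterhyperpolarization, stood at 28.4, 35.5, 37.9 and 25.2 CPM in NR and at 50.8, 52.4, 67.4 and 47.2 CPM in DR (log2 fold change 0.75, edgeR adjusted p = 0.000229). Kcnip2, an accessory subunit of A-type channels, had 0.81 (adjusted p = 0.0288; lost on leaving out any 1 of 5 libraries: NR GR-Con female, both NR GR-KO, DR GR-Con female and DR GR-KO male). Kcnj3, a G-protein-gated inward rectifier subunit, fell from 519, 367, 451 and 435 CPM to 327, 281, 215 and 303 CPM (-0.65, adjusted p = 0.00555; lost without NR GR-Con male, DR GR-Con female or DR GR-KO male). For these 3 genes, as for most called genes of sufficient level, each DR library lay on the same side of every NR library.

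In the glutamate receptor list, 2 of 28 genes rose (7.14% called, against 3.88% of all genes tested, and 0 with the quasi-likelihood test). Both encode kainate receptor subunits. Grik3 stood at 42.1, 58.6, 63.1 and 60.4 CPM in NR and at 83.2, 104, 132 and 66.4 CPM in DR (log2 fold change 0.79, edgeR adjusted p = 0.00844), with the call lost without NR GR-Con male, DR GR-Con female or DR GR-KO male. Grik5 had 0.32 (adjusted p = 0.0384), and this call was lost whichever library was left out. Of 23 genes of GABA receptors and inhibitory synapses, 0 were called by edgeR or DESeq2, with 2 at an unadjusted p under 0.05. Among 42 axon growth and guidance genes, Robo3 and Slit1 rose and Sema3a and Sema3e fell. Sema3e, a secreted semaphorin, stood at 245, 239, 223 and 320 CPM in NR and at 118, 147, 87.1 and 166 CPM in DR (-0.98, SE 0.21, adjusted p = 0.000829), and no left-out library ended this call. Robo3, a receptor of the Roundabout family, stood at 63.5, 73.1, 54.5 and 28.9 CPM in NR and at 82.1, 85.8, 108 and 112 CPM in DR (0.83, adjusted p = 0.0247). The Robo3 call was lost without NR GR-Con male, NR GR-KO male or either DR GR-KO library, that of Slit1 (0.61) without either NR GR-Con library, NR GR-KO female, DR GR-Con female or DR GR-KO female, and that of Sema3a (-0.83) without NR GR-Con male, either NR GR-KO library, DR GR-Con female or DR GR-KO male.

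Adhesion genes and projection identity genes were called at 6.82% and 4.35%, against 3.88% of all genes tested. Of 44 adhesion and synapse organizer genes, Tenm4, a teneurin (log2 fold change 0.38, edgeR adjusted p = 0.00767), and Pcdh15, a protocadherin (0.79, adjusted p = 0.00995), rose and Erbb4, a neuregulin receptor (-0.72, adjusted p = 0.0138), fell. The Tenm4 call was lost without either NR GR-Con library, DR GR-Con female or DR GR-KO male, and that of Pcdh15 without NR GR-Con male, DR GR-Con female or DR GR-KO female. The sum of 6 inhibitory markers was 6.30 to 11.2 CPM in NR and 4.78 to 6.44 CPM in DR. With Adarb2 added it was 23.7 to 81.6 CPM in NR and 15.6 to 48.7 CPM in DR. The Erbb4 call was lost without any 1 of the 4 GR-Con libraries or DR GR-KO male, and with equal numbers of nuclei per library the Erbb4 value turned to 0.56. Of 23 identity genes, 1 rose: Crim1, which is known from corticospinal neurons, with 71.5, 67.0, 81.9 and 50.7 CPM in NR and 94.0, 130, 111 and 99.3 CPM in DR (0.66, adjusted p = 0.00117). Bcl11b (0.31, adjusted p = 0.135) and Fezf2 (-0.04, adjusted p = 0.879) were not called. Of 5 tested genes that mark L5PT subtypes, 0 were called by edgeR or DESeq2, with 2 at an unadjusted p under 0.05.

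**Figure D3:**
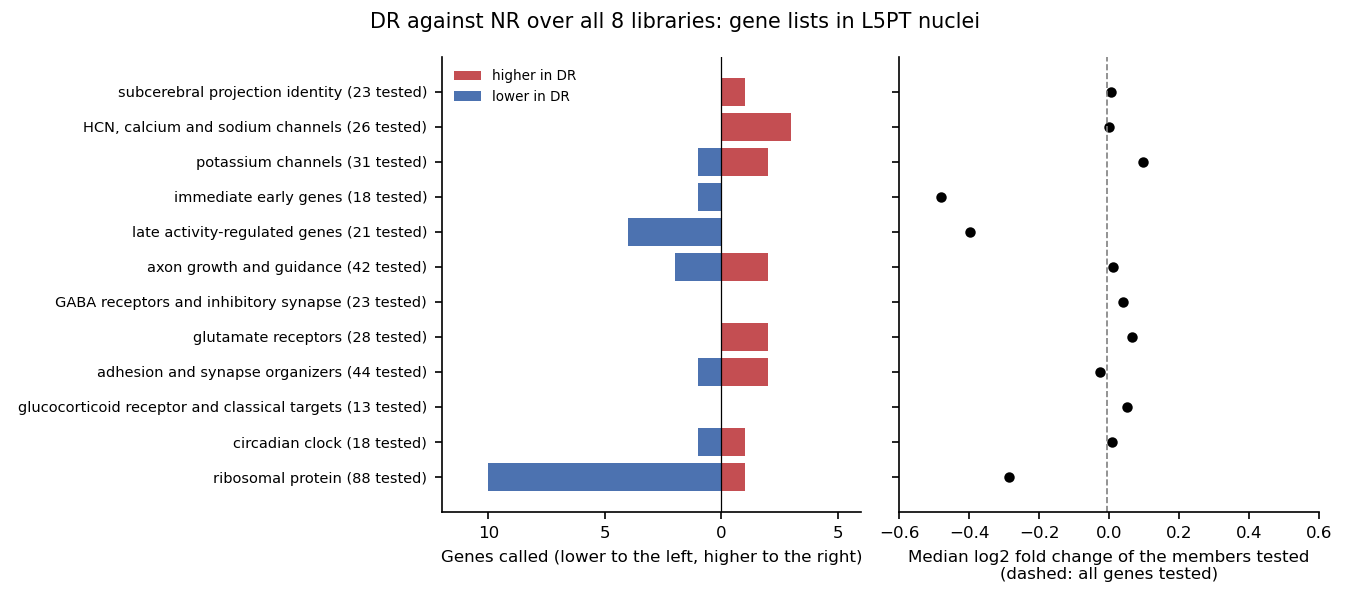
Number of genes of each list called higher or lower in DR against NR over all 8 libraries (bars, edgeR likelihood ratio test) and median log2 fold change of the list's tested genes (points; dashed line, all genes tested). The immediate early and late activity-regulated lists lie at -0.48 and -0.40, and the ribosomal protein list, with 10 genes lower, at -0.29.

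The genes with the smallest p in each direction had other roles. Adamts17, a secreted metalloprotease gene, stood at 49, 47.3, 55.0 and 57.4 CPM in NR and at 75.4, 93.5, 105 and 97.7 CPM in DR (log2 fold change 0.84, SE 0.10, edgeR likelihood ratio adjusted p = 1.78e-12; quasi-likelihood 0.00993). Chst9, a carbohydrate sulfotransferase gene, stood at 11.5, 8.44, 17.6 and 5.18 CPM in NR and at 37.4, 23.9, 46.7 and 36.4 CPM in DR (1.70, adjusted p = 7.36e-07). Rhbdl3, Slc24a4 and E230016M11Rik rose by 0.70, 0.54 and 0.57 on the log2 scale. Among those that fell, Ugt8a, which makes galactosylceramide of myelin, stood at 34.7, 35.6, 18.0 and 30.0 CPM in NR and at 15.7, 15.7, 10.4 and 10.3 CPM in DR (-1.14, adjusted p = 3.23e-10), and 3 oligodendrocyte markers other than Mbp, summed over L5PT nuclei, moved alongside, at 32.6, 21.4, 32.5 and 27.8 CPM in NR and 13.5, 13.1, 20.3 and 14.7 CPM in DR. With Mbp, which made up 51.0% to 90.1% of it, the sum was 120, 91.0, 139 and 56.7 CPM in NR and 84.1, 91.4, 168 and 148 CPM in DR, and the part of oligodendrocyte RNA in the Ugt8a result was not tested. Cox4i1, a subunit of cytochrome c oxidase, stood at 27.9, 27.7, 31.3 and 29.3 CPM in NR and at 18.0, 20.2, 20.4 and 18.5 CPM in DR (-0.59), and Hmgn3, a nucleosome-binding protein gene, had -0.60. Malat1, a nuclear long noncoding RNA and the gene with the highest level of those named here, stood at 62995, 64866, 58425 and 61006 CPM in NR and at 40244, 43590, 34904 and 39231 CPM in DR (-0.65, SE 0.10, adjusted p = 7.36e-07). All of these calls were kept whichever library was left out.

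Genes of the clock and of the ribosome were read as checks on collection time and RNA composition. Of 18 clock genes, Hlf rose (log2 fold change 0.52, edgeR adjusted p = 0.000505), with 22.4, 26.5, 30.4 and 35.9 CPM in NR and 31.9, 35.7, 49.5 and 46.7 CPM in DR, and Ciart fell (-0.78, adjusted p = 0.0003), with 10.3, 14.5, 11.6 and 10.0 CPM in NR and 6.49, 6.98, 7.05 and 6.94 CPM in DR. The Hlf groups overlapped and those of Ciart did not. Of 88 genes that carry a ribosomal protein name, 10 fell, among them Rpl8 (-0.84) and Rpl34 (-0.70), and the 1 that rose, Rps6ka2 (0.77), encodes a kinase and not a ribosomal protein. The summed level of the list was 1341, 1231, 1474 and 1341 CPM in NR and 1181, 1222, 1206 and 1164 CPM in DR, so that RNA composition moved with rearing; its part in the other differences was not tested. Of 10 mitochondrially encoded genes tested, 0 were called by edgeR or DESeq2 and 0 had an unadjusted p under 0.05.

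Darkness was then compared within each genotype, in libraries that the other genotype does not share. In GR-Con, 266 of 14772 genes were higher and 266 lower in DR (3.6% called, edgeR likelihood ratio test), with 52 and 34 in the quasi-likelihood test and 137 and 106 in DESeq2. In GR-KO, 133 of 14201 were higher and 112 lower (1.73% called; 0 with the quasi-likelihood test, where 1702 had an unadjusted p under 0.05, and 9 and 4 by DESeq2). Leaving out 1 library moved both counts. In GR-Con they were 144 and 168 without the male or female NR library and 928 and 961 without the male or female DR library, and in GR-KO 622 without the male NR, 17 without the male DR, 34 without the female DR and 247 without the female NR library.

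Of the 503 genes called in GR-Con that could be tested in GR-KO, 369 (73.4%) had the same sign there, against 60.7% of all genes tested in both. Across these genes, which are not independent replicates, Pearson's r was 0.489 and Spearman's rho 0.497. Called in the same direction in both were 30 genes, which is 5.96% of the former list and 12.2% of the 245 called in GR-KO. The 30 included Vgf (log2 fold changes -1.43 in GR-Con and -1.56 in GR-KO), Adamts17 (0.80 and 0.87), Chst9 (1.61 and 1.79), Ugt8a (-1.17 and -1.14) and Malat1 (-0.62 and -0.67). Another 3 of the 30 were picked after their values were seen because their roles are known. Spry2, an inhibitor of receptor tyrosine kinase signalling, stood at 7.31 and 8.28 CPM in NR GR-Con and 10.7 and 11.5 in NR GR-KO, against 3.85, 3.91, 4.09 and 3.51 CPM in the DR libraries (-1.02 and -1.49). Npy, a neuropeptide of interneurons, stood at 1.59, 1.64, 2.46 and 1.48 CPM in NR and at 0.43, 0.47, 0.41 and 0.43 CPM in DR, beside summed levels of 6 inhibitory markers (Gad1, Gad2, Slc32a1, Pvalb, Sst and Vip) of 10.6, 8.28, 11.2 and 6.30 CPM in NR and 4.78, 5.62, 6.44 and 4.89 CPM in DR. Ntsr1, a neurotensin receptor gene that marks corticothalamic cells, stood at 1.83, 2.50, 2.33 and 2.96 CPM in NR and at 5.56, 4.20, 11.2 and 6 CPM in DR (1.16 and 1.79), and the summed level of 3 L6CT markers was 38.4, 54.3, 69.1 and 38.1 CPM in NR and 75.8, 112, 68.0 and 47.0 CPM in DR. Called in opposite directions were 7 genes: Dsel, C1ql3, Nr4a3, Evc2, Rasd2, Plxdc1 and Gm34466.

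**Figure D4:**
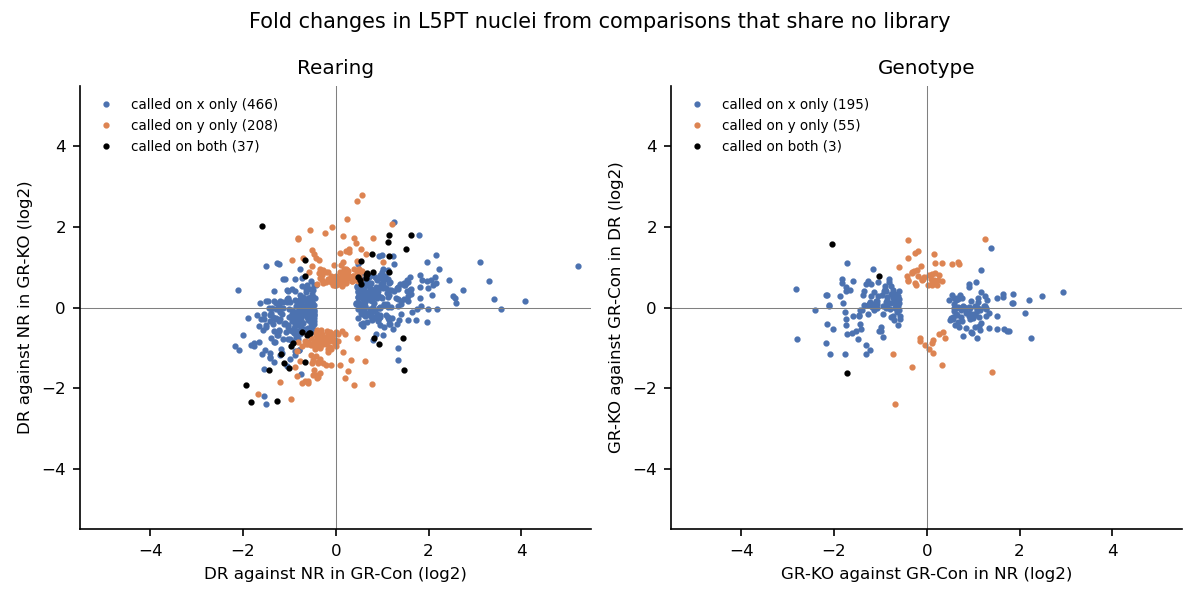
Log2 fold changes of single genes in 2 comparisons that share no library, for rearing (left, GR-Con against GR-KO mice) and genotype (right, NR against DR); colours mark genes called in 1 or both. For rearing 37 genes were called in both, 30 of them in the same direction, and for genotype 3.

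Among the genes with the smallest p in GR-Con mice, Osbpl3 had a log2 fold change of -2.18 (SE 0.15, edgeR likelihood ratio adjusted p = 3.23e-43; quasi-likelihood 0.000849), and in GR-KO it had -0.97 without being called (adjusted p = 0.115); the difference between both effects did not pass (interaction -1.22, adjusted p = 0.170). Atp2b4, a plasma membrane calcium pump, stood at 21.7 and 20.9 CPM in NR GR-Con and at 62.8 and 55.5 CPM in DR GR-Con (1.46, SE 0.16, adjusted p = 1.75e-16; quasi-likelihood 0.0161). Syt17, a synaptotagmin family member, stood at 35.0 and 27.0 against 109 and 83.3 CPM (1.63, adjusted p = 7.78e-12), and Inpp4b, a phosphoinositide phosphatase gene, at 18.9 and 17.3 against 42.5 and 65.1 CPM (1.56, adjusted p = 2.93e-10). Slc44a5 rose by 1.13, and Papln (-1.41), 9630014M24Rik (-1.89) and Gm13629 (-1.61) fell. All of these were kept whichever library was left out.

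Receptor and channel genes were called in both directions in GR-Con, where 3.6% of all genes were called. In the same L5PT nuclei, markers of other types moved with rearing without overlap in both directions. The L5NP sum was 54.3 and 56.6 CPM in NR GR-Con and 113 and 110 CPM in DR GR-Con, that of L6IT 6.43 and 6.25 against 17.6 and 22.2 CPM, and that of L6CT 38.4 and 54.3 against 75.8 and 112 CPM (3 markers each). The L4 sum was 75.8 and 63.7 CPM in NR GR-Con and 38.9 and 51.1 CPM in DR GR-Con, and that of 5 astrocyte markers 19.9 and 17.6 against 8.63 and 13.3 CPM. By chance 2 against 2 libraries separate with a probability of 0.333, and the part of these sums in the differences of this comparison was not tested. Of 29 glutamate receptor genes, 5 rose (Gria1, Grik3, Grik4, Grm3, Neto2) and 0 fell. Gria1, an AMPA receptor subunit, stood at 644 and 759 CPM in NR and 1007 and 1114 CPM in DR (log2 fold change 0.58, edgeR adjusted p = 0.0105), and Grik4, a kainate receptor subunit, at 53.0 and 57.1 against 85.6 and 93.2 CPM (0.69, adjusted p = 0.000103). Of 26 HCN, calcium and sodium channel genes, Cacna1c and Cacna1g rose and Cacna2d2 and Scn1a fell, the latter, a sodium channel pore subunit, from 760 and 717 to 506 and 489 CPM (-0.58, adjusted p = 0.00321). Among 31 potassium channel genes Kcnq3, a subunit of the M-current, rose from 568 and 551 to 899 and 983 CPM (0.74, adjusted p = 2.28e-05) with Kcnn3, and Kcna1, Kcnc2 and Kcnn1 fell. Of 23 inhibitory synapse genes, Gabrd, the delta subunit of extrasynaptic GABA-A receptors (-0.84, adjusted p = 0.000467), and Iqsec3 fell. Slit1 and Ntn1 rose and Unc5c and Sema3e fell among 42 guidance genes. In these lists most calls rested on both NR GR-Con libraries: of the 42 genes named for this comparison 29 lost their call when 1 library was left out, and 13 did not, among them Vgf, Sema3e and Erbb4 (-0.90, adjusted p = 1.53e-05). Erbb4 was highest in chandelier cells, with 4680 CPM in oligodendrocytes and 3747 CPM in their precursor cells. The sum of 6 inhibitory markers moved with Erbb4, at 10.6 and 8.28 CPM in NR GR-Con and 4.78 and 5.62 CPM in DR GR-Con. With Adarb2 as the 7th marker the sums overlapped, at 81.6 and 40.9 against 48.7 and 31.5 CPM. The sum of 3 oligodendrocyte markers was 32.6 and 21.4 CPM in NR GR-Con and 13.5 and 13.1 CPM in DR GR-Con. With Mbp added, the oligodendrocyte sums overlapped, at 120 and 91.0 against 84.1 and 91.4 CPM. The part of interneuron or oligodendrocyte RNA in the Erbb4 result was not tested.

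In GR-KO mice 0 of 28 glutamate receptor genes were called by edgeR or DESeq2, with 6 at an unadjusted p under 0.05. Of all genes, the likelihood ratio test called 1.73% here, so 0 of 28 is near that share. It put 1657 of all 14201 genes at an unadjusted p under 0.05. Kcnn3 and Vgf were called in the same direction as in GR-Con. The difference between the genotypes was not tested for a list. In these L5PT nuclei the L5IT marker sum was 221 and 382 CPM in NR GR-KO and 101 and 121 CPM in DR GR-KO, and that of mitochondrially encoded genes 123 and 141 against 119 and 95.2 CPM. The L5IT sum was mostly Etv1, with means of 224 CPM for Etv1, 7.06 for Deptor and 2.31 for Hsd11b1 in L5PT over 8 libraries. Etv1 was highest in L5NP, at 603 CPM, against 273 CPM in L5IT. The sum of 4 oligodendrocyte markers was 139 and 56.7 against 168 and 148 CPM. Without Mbp, the other 3 went the other way, at 32.5 and 27.8 against 20.3 and 14.7 CPM. The ribosomal protein sum was 1474 and 1341 against 1206 and 1164 CPM. None of these overlapped between rearings, which by chance has a probability of 0.333 for each sum. Their part in the calls was not tested. Bcar3, an adaptor of integrin signalling, stood at 12.5 and 10.4 CPM in NR GR-KO and at 32.6 and 31.5 CPM in DR GR-KO (a log2 change of 1.46, SE 0.18, edgeR adjusted p = 7.21e-12). It was the only one of 26 genes named for this comparison whose call was kept whichever library was left out. Robo3 rose by 1.39 (adjusted p = 0.00035; lost without the female DR library). Of 21 late activity-regulated genes Vgf, Scg2 (-1.48, edgeR likelihood ratio adjusted p = 1.4e-05), Dusp6 (-1.83, adjusted p = 0.000407) and Bdnf fell and Lingo1 rose, and of 17 immediate early genes Jun and Nr4a3 fell. The quasi-likelihood test and DESeq2 called 0 genes of either list. The calls of Bdnf, Jun and Nr4a3 were lost among nuclei of 30000 to 60000 UMIs. Atp6v0c, a proton pump subunit, fell by 0.98 on the log2 scale (adjusted p = 1.67e-05). Atp6v0c and Scg2 were lost without either DR GR-KO library, and Dusp6 and Vgf without the male NR or the male DR library.

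The second question was how L5PT neurons differed between GR-KO and GR-Con mice. In NR, 94 of 14577 genes were higher and 116 lower in GR-KO (1.44% called, edgeR likelihood ratio test; 0 with the quasi-likelihood test, where 1175 had an unadjusted p under 0.05, and 23 and 13 by DESeq2). Leaving out the male or the female NR GR-Con library left 30 and 22 calls, and leaving out the male or the female NR GR-KO library gave 567 and 510. Of 23 genes named for this comparison, 6 kept their call whichever library was left out: Slc35f1, Cntnap5c, Nr4a3, Gm13629, Erbb4 and 9330159M07Rik. Marker sums in the same L5PT nuclei also separated the genotypes in NR: 5 astrocyte markers summed to 19.9 and 17.6 CPM in GR-Con and 12.3 and 8.15 CPM in GR-KO, 3 L6IT markers to 6.43 and 6.25 against 11.1 and 18.1 CPM, and mitochondrially encoded genes to 109 and 86.8 against 123 and 141 CPM. Sums of the excitatory, endothelial and 7 inhibitory markers separated the genotypes too. By chance 2 against 2 libraries separate with a probability of 0.333, and the part of these sums in the genotype differences was not tested.

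Slc35f1, a solute carrier family gene (chr10:52690533-53111622), stood at 91.7 and 75.9 CPM in NR GR-Con and at 240 and 236 CPM in NR GR-KO (a log2 change of 1.51, SE 0.18, edgeR likelihood ratio adjusted p = 7.64e-13; quasi-likelihood 0.0766). The pairs were far apart, and the DR libraries, at 345 and 210 CPM in GR-Con and 263 and 117 CPM in GR-KO, were spread over the same range and above it. Cntnap5c, a contactin-associated protein gene, stood at 53.5 and 40.2 against 129 and 188 CPM (1.76, adjusted p = 2.11e-08). Nr4a3, an inducible nuclear receptor, stood at 4.76 and 6.49 against 18.2 and 17.4 CPM (1.66, SE 0.22, adjusted p = 4.01e-10). Gm13629, a noncoding transcript, fell from 80.4 and 89.2 to 35.9 and 35.5 CPM (-1.25, adjusted p = 2.71e-10). Neto2, an auxiliary subunit of kainate receptors (chr8:85636588-85700924), stood at 21.4 and 19.5 against 40.7 and 34.4 CPM (0.91, adjusted p = 1.93e-06), and was lost without either NR GR-Con library. Dpyd rose by 1.03 (adjusted p = 9.52e-07), with the same dependence.

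Erbb4 (chr1:68032186-69108059) stood at 46.6 and 57.7 CPM in NR GR-Con and at 19.7 and 23.3 CPM in NR GR-KO (a log2 change of -1.32, edgeR adjusted p = 1.21e-07). Interneurons hold far more of this gene, with 19811 CPM in chandelier cells, and 1 of 7 inhibitory markers, Adarb2, moved alongside in L5PT nuclei, at 70.9 and 32.7 CPM in NR GR-Con and 14.2 and 17.4 CPM in NR GR-KO. The sum of the other 6 was 10.6 and 8.28 CPM in NR GR-Con and 11.2 and 6.30 CPM in NR GR-KO, so that these overlapped between the genotypes. With Adarb2, which made up 56.1% to 90.2% of it, the sum was 81.6 and 40.9 against 25.4 and 23.7 CPM. Oligodendrocytes, at 4680 CPM, and their precursor cells, at 3747 CPM, also held more Erbb4 than L5PT nuclei. The part of interneuron or oligodendrocyte RNA in the Erbb4 difference was not tested. With equal numbers of nuclei per library the value turned to 0.85, and among nuclei of 30000 to 60000 UMIs it was -2.27.

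By list, in NR, where 1.44% of all genes were called, 3 of 28 glutamate receptor genes rose in GR-KO (among them Neto2 and Grm3, the latter by 0.67) and 0 fell. Of 26 HCN, calcium and sodium channel genes Cacna2d2 (-0.63) and Scn4b fell, of 31 potassium channel genes Kcnn1 (-0.87) and Kcnh5 fell, and of 44 adhesion genes Cdh10 (1.05) and Cdh13 (1.14) rose and Erbb4 fell. The identity gene Crym, a thyroid hormone-binding protein, rose by 0.58 (edgeR adjusted p = 0.0215). Each of these calls apart from Erbb4 was lost without either NR GR-Con library. Of 41 guidance genes and 18 clock genes 0 were called by edgeR or DESeq2, with 9 and 3 at an unadjusted p under 0.05. Among all 14577 genes, 1287 had an unadjusted likelihood ratio p under 0.05. The 18 immediate early genes had a median of 1.13 against 0.0064 for all genes, with 1 called (Nr4a3). This median rested on the male NR GR-KO library: it was -0.30 without it and 1.64 without the female NR GR-KO library. Each of these fits left 1 library in NR GR-KO.

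In DR, 43 of 14585 genes were higher and 17 lower in GR-KO (0.411% called, edgeR likelihood ratio test; 0 with the quasi-likelihood test, where 1045 had an unadjusted p under 0.05, and 14 and 8 by DESeq2). The counts without 1 library were 143 and 113 (DR GR-Con male, female) and 25 and 36 (DR GR-KO male, female). Marker sums of other excitatory types separated the genotypes, with 3 L5IT markers at 264 and 180 CPM in GR-Con and 101 and 121 CPM in GR-KO and 3 L6CT markers at 75.8 and 112 against 68.0 and 47.0 CPM, and so did 5 astrocyte markers, at 8.63 and 13.3 against 8.38 and 8.57 CPM. The L5IT sum was mostly Etv1, which averaged 224 CPM in L5PT over 8 libraries and was highest in L5NP. The astrocyte sums separated only narrowly, at 8.63 against 8.57 CPM. By chance 2 against 2 libraries separate with a probability of 0.333, and the part of these sums in the differences was not tested. Siah3, a gene of the Siah ubiquitin ligase family, stood at 19.2 and 23.6 CPM in GR-Con and 55.6 and 50.6 CPM in GR-KO (change 1.34 on the log2 scale, SE 0.16, edgeR adjusted p = 7.56e-12; quasi-likelihood 0.184), but in NR its values were 28.7, 15.1, 39.8 and 8.15 CPM and the genotypes overlapped. Traf3, a signalling adaptor of the TNF receptor family, stood at 55.8 and 55.6 against 111 and 84.0 CPM (0.83), and was lost without DR GR-Con female or DR GR-KO male. Gabrd stood at 14.5 and 12.6 against 23.0 and 22.4 CPM (0.77, adjusted p = 0.00645). The Gabrd call was lost without either DR GR-KO library and without DR GR-Con female. Mbp, a myelin protein gene, stood at 70.6 and 78.3 against 147 and 133 CPM (0.94, adjusted p = 1.17e-06) beside sums of the same 3 other oligodendrocyte markers of 13.5 and 13.1 against 20.3 and 14.7 CPM. Adarb2, an interneuron gene at 22585 CPM in Vip cells, stood at 43.9 and 25.9 against 11.4 and 10.7 CPM (-1.63, adjusted p = 3.88e-05) beside sums of the other 6 inhibitory markers of 4.78 and 5.62 against 6.44 and 4.89 CPM. The part of oligodendrocyte RNA in the Mbp difference was not tested. Gabrd was the only member of the 12 lists of neuronal function, hormone response and clock called in DR.

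The genotype differences of NR and DR, which share no library, were set against each other. Of 198 genes called in NR and testable in DR, 80 (40.4%) had the same sign there, against 48.3% of all genes tested in both. Only 1 was called in the same direction in both and 2 in opposite directions. Of 58 genes that passed in DR, 27 (46.6%) went the same way in NR. With rearing as a term, the fit over all 8 libraries put 16 of 14711 genes higher and 16 lower in GR-KO (0.218% called, edgeR likelihood ratio test; 0 with the quasi-likelihood test, where 872 had an unadjusted p under 0.05, and 8 and 6 by DESeq2). Without 1 library the count was 97 (DR GR-Con male), 91 (DR GR-KO female), 88 (NR GR-KO female), 20 (NR GR-Con female) or between 22 and 26 (the other 4).

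Neto2 was among the genes higher over all 8 libraries, with 27.5 and 29.7 CPM in DR GR-Con and 47.6 and 32.2 CPM in DR GR-KO beside its NR values above. Each GR-KO library was above each GR-Con library (log2 fold change 0.69, SE 0.14, edgeR likelihood ratio adjusted p = 0.00243; quasi-likelihood 0.320), but the call was lost without either NR GR-Con library, NR GR-KO male or DR GR-KO male. Lack of overlap held for 5 of the 8 genes called here with a mean log2 CPM of at least 4, outside chromosomes X and Y. It was a condition for naming genes by smallest p. Tnfrsf21 (0.39, adjusted p = 0.0235), a death receptor gene, and Hlf (0.48, adjusted p = 0.0133) rose and Tmem38b (-0.45, adjusted p = 0.0173), a cation channel of intracellular stores, fell, each lost without several single libraries. Erbb4 (-1.11, edgeR likelihood ratio adjusted p = 7.68e-05) and Adarb2 (-1.68, adjusted p = 8.45e-07) fell and were kept whichever library was left out. Among nuclei of 30000 to 60000 UMIs Erbb4 was not called (edgeR likelihood ratio adjusted p = 0.804) and Adarb2 was (0.00231). With equal numbers of nuclei per library 0 genes were called in this comparison. The 6 inhibitory markers other than Adarb2 summed to between 4.78 and 10.6 CPM in the GR-Con libraries and between 4.89 and 11.2 CPM in the GR-KO libraries.

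Whether the genotype difference depended on rearing was tested by the interaction, the difference in NR minus that in DR. Of 15117 genes, 19 were higher and 26 lower (0.298% called, edgeR likelihood ratio test; 0 with the quasi-likelihood test, where 1207 had an unadjusted p under 0.05, and 3 and 2 by DESeq2). C1ql3, a secreted synaptic organizer of the complement C1q family, stood at 19.2 and 14.7 CPM in NR GR-Con, 35.4 and 36.3 in NR GR-KO, 31.4 and 34.0 in DR GR-Con and 24.0 and 14.2 in DR GR-KO. Its log2 fold change was 1.08 in NR (adjusted p = 3.83e-06) and -0.75 in DR, where it was not called (adjusted p = 0.156), with an interaction of 1.83 (adjusted p = 7.41e-05) that only the quasi-likelihood test did not call. Plxdc1, a plexin domain gene, had differences of the opposite signs, called in NR (-0.89) but not in DR (0.55, adjusted p = 0.212), with 22.7 and 21.7, then 13.0 and 9.26 CPM in NR and 12.5 and 15.6, then 19.8 and 20.3 CPM in DR (interaction -1.44, adjusted p = 1.29e-05). Dsel, Dpyd, Klhl1 and Cntnap5c had positive and Gm6260, Vwa5b2, Ppard and Tspan9 negative interactions among the 5 named per direction. Of these 10 genes, C1ql3, Plxdc1, Gm6260, Vwa5b2, Ppard and Tspan9 kept their calls whichever library was left out. The number called ranged from 19 (without DR GR-KO female) and 20 (without NR GR-Con female) to 298 (without NR GR-KO male) and 184 (without DR GR-Con female). It was 27 without NR GR-Con male, 78 without NR GR-KO female and 101 without DR GR-KO male.

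Several genes called by genotype in NR were also called by rearing in GR-Con, and both comparisons use the same pair of NR GR-Con libraries, so the values of all groups are given side by side. Cdh13, a cadherin that marks an L5PT subtype, stood at 291 and 248 CPM in NR GR-Con, 496 and 689 in NR GR-KO, 642 and 596 in DR GR-Con and 743 and 444 in DR GR-KO (log2 fold change 1.14 by genotype in NR, edgeR adjusted p = 0.000415, and 1.19 by rearing in GR-Con, adjusted p = 4.03e-11). Grm3, a metabotropic glutamate receptor gene, stood at 171 and 154, then 242 and 275, 269 and 219, and 158 and 216 CPM. Crym stood at 60.3 and 56.3, then 84.0 and 90.7, 95.5 and 83.7, and 109 and 66.7 CPM. In all 3 the NR GR-Con pair lay below the other groups or shared its range with a DR GR-KO library. Kcnn1, a small-conductance calcium-activated potassium channel, went the other way, with 9.69 and 9.14 CPM in NR GR-Con, 5.48 and 4.07 in NR GR-KO, 5.56 and 6.51 in DR GR-Con and 4.70 and 8.66 in DR GR-KO. Neto2, Nr4a3, Erbb4, Cacna2d2 and Gm13629 were also called in the same direction in both comparisons.

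**Figure D5:**
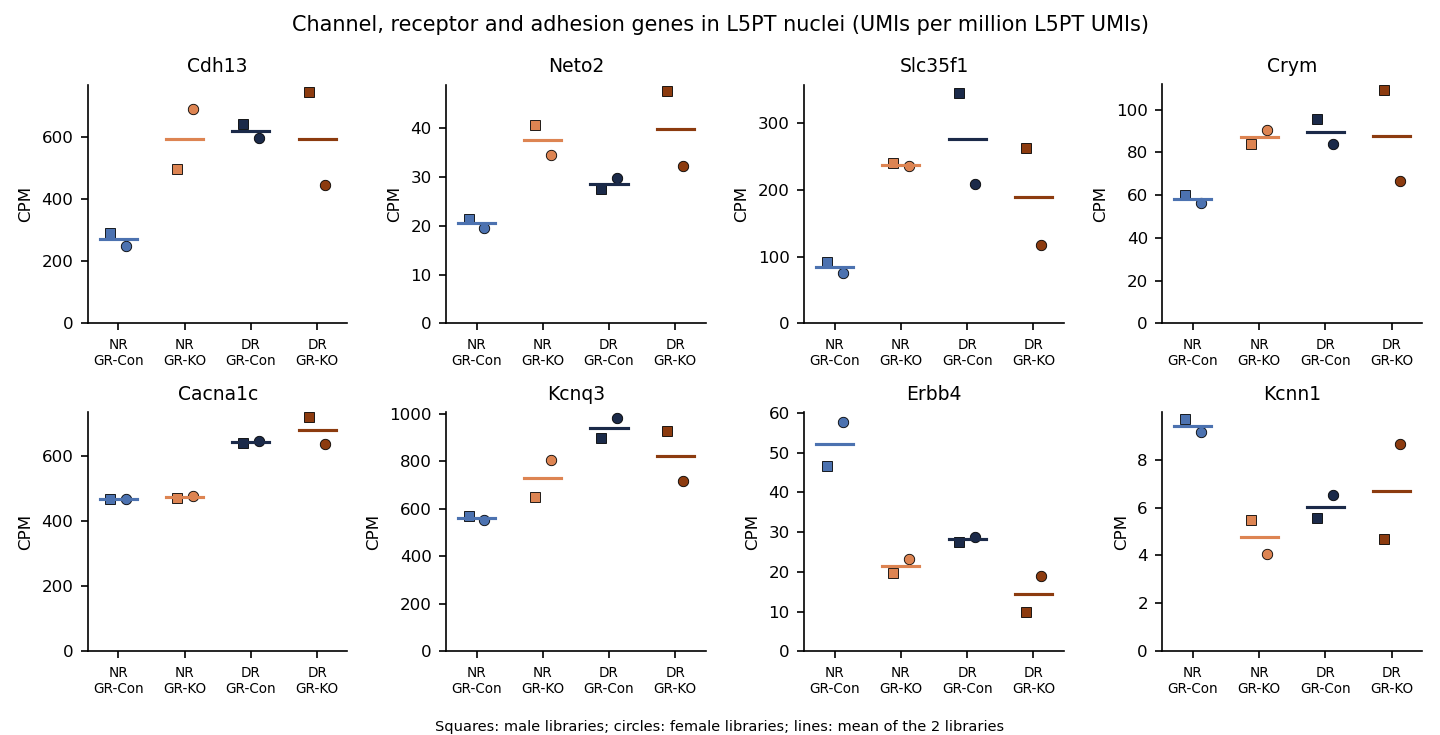
Levels in CPM of 8 genes in the L5PT sum of each library, by group (squares male, circles female; lines, mean of the 2 libraries). The NR GR-Con pair is lowest for Cdh13 (291 and 248 CPM), Neto2, Slc35f1, Crym and Kcnq3 and highest for Kcnn1, and Cacna1c separates NR (467 to 477 CPM) from DR (637 to 722 CPM).

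The rearing differences were finally compared with those in 2 other excitatory types of the same libraries, L5IT (3483 nuclei), the intratelencephalic cells of layer 5, and L6CT (12197 nuclei), the corticothalamic cells of layer 6. Tested gene by gene over the 8 libraries with limma, the rearing difference in L5PT minus that in L5IT was called for 0 of 13689 genes (0% called; 992 at an unadjusted p under 0.05, smallest adjusted p = 0.0736) and that minus L6CT for 0 of 14406 (0% called; 1471 at an unadjusted p under 0.05, smallest adjusted p = 0.2165). A gene called in L5PT is thus not shown to change more there than in these types. Of the L5PT rearing calls, 533 were testable with L5IT and 556 with L6CT, and all 3 types come from the same animals. The median size of the log2 fold change over those calls was 0.58 in L5PT and 0.41 in L5IT, and 0.59 in L5PT and 0.46 in L6CT, a description only, since the genes were chosen by their values in L5PT.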

How the data were processed

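UMI counts of 26711 features in 102330 nuclei and the cell table, with counts per nucleus and the percent of mitochondrial UMIs, were deposited by the authors. According to the study's methods, the authors aligned reads with Cell Ranger 8.0.1 to mm10 with a custom EGFP sequence, removed nuclei with too few genes or over 70000 UMIs and predicted doublets (DoubletFinder), and annotated cell types in Seurat 5.3.0; the deposited types were used unchanged. Matrix values were whole and their column sums equalled the table. Library names carry sex but no replicate number.

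UMIs of L5PT nuclei were summed per library and fitted with edgeR 4.0.16 (R 4.3.3; filterByExpr, TMM, glmFit, glmLRT, two-sided, Benjamini-Hochberg over all genes tested, called at an adjusted p under 0.05). The study's methods name the edgeR likelihood ratio test and this threshold for genotype in NR; the other settings and comparisons were chosen here. An SE is the log2 fold change divided by the root of its likelihood ratio statistic. Differences from L5IT and L6CT were fitted with limma 3.58.1 on log2 CPM with a prior count of 2. The quasi-likelihood test and DESeq2 1.42.0 were run beside them, and the code was tested on simulated data. Alternatives were size factors, no filter on low counts, a sex term, equal numbers of nuclei, 1 fit over 8 libraries, leaving out each library and, chosen after the depth of 1 library was seen, nuclei of 30000 to 60000 UMIs.

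Members and lists were chosen with earlier results of these data known. Named genes were Bcl11b, Fam84b, Nr3c1, EGFP and Cre, up to 5 per direction and comparison with the smallest p among called autosomal genes whose mean log2 CPM reached 4 and that showed no overlap between groups (not required for the interaction), and members of the lists. EGFP was at 0 to 0.63 CPM in L5PT and averaged 14.9 CPM in astrocytes. Coordinates are from GENCODE on GRCm38, by symbol (26006 features matched 1 gene, 41 several, 664 none), and promoters from RefSeq (GRCm38.p6). Intervals and floors cover counting error only. No batch is given in the labels. A few named genes are not reported here.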

Additional observations from a re-analysis of the deposited data

Results flagged for a closer look

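In groups of 4 libraries, the gap of the highest or lowest library to its neighbour was compared with the range of the group by Dixon's test, for 18 measures in 72 groups; chance alone flags about 1 group in 20, and 8 values were flagged. Krt80 was far from the other NR libraries in the female NR GR-KO library, at 8.15 CPM, and far from the other DR libraries in the female DR GR-KO library, at 2.57 CPM. The male NR GR-KO library was far from the other NR libraries for Fos, at 8.32 CPM, and Arc, at 15.0 CPM, and far from the other GR-KO libraries for Egr1, at 25.4 CPM, and Lratd2, at 12.5 CPM. The female DR GR-Con library was far from the other DR libraries for Scg2, at 4.79 CPM, and Lratd2, at 9.11 CPM.

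The genotype difference differed between NR and DR by the interaction test (edgeR likelihood ratio test, adjusted p under 0.05) in 13 named genes, given as the log2 difference in NR minus that in DR. Higher in NR were Cntnap5c (2.35), Nr4a3 (2.19), Jun (1.96), C1ql3 (1.83), Dsel (1.57), Dpyd (1.52) and Klhl1 (1.20). Lower in NR were Plxdc1 (-1.44), Ppard (-1.21), Gm6260 (-1.10), Tspan9 (-1.08), Vwa5b2 (-1.01) and Gabrd (-0.97). The quasi-likelihood test called 0 of them. The calls of C1ql3, Plxdc1, Gm6260, Vwa5b2, Ppard and Tspan9 were kept whichever library was left out. Those of the other 7 genes were each lost on leaving out single libraries: all 7 without NR GR-Con female; Dsel, Cntnap5c, Jun, Nr4a3 and Gabrd without DR GR-KO female; Dpyd, Klhl1, Cntnap5c and Nr4a3 without NR GR-Con male; Klhl1, Nr4a3 and Gabrd without DR GR-KO male. Jun and Gabrd were lost without NR GR-KO male or DR GR-Con female, Cntnap5c and Nr4a3 without NR GR-KO female, and Cntnap5c without DR GR-Con male.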

How the results depend on the processing

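The quasi-likelihood test called 0 genes for genotype in NR, in DR and over all 8 libraries, for rearing in GR-KO and for the interaction, 86 for rearing in GR-Con and 35 for rearing over all 8 libraries. DESeq2 called 36 and 22 for genotype in NR and in DR, 14 over all 8 libraries, 243 and 13 for rearing in GR-Con and in GR-KO, and 5 for the interaction. With equal numbers of nuclei per library the counts were 46 (genotype in NR), 0 (genotype over all 8 libraries), 49 (rearing in GR-KO), 109 (rearing over all 8 libraries) and 19 (interaction). A sex term gave 136 for genotype in DR, 419 for rearing in GR-KO and 113 for the interaction, and no filter on low counts gave 159 for rearing in GR-KO. In 1 fit over 8 libraries, 82 and 33 were called for genotype in NR and DR and 303 for rearing in GR-Con. Nuclei of 30000 to 60000 UMIs gave 170 for the interaction and 14 for genotype over all 8 libraries. The cause of these shifts was not tested, and the fit with equal numbers of nuclei had fewer UMIs and tested fewer genes at the same time.

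Leaving out 1 library gave 22 to 567 calls for genotype in NR, 25 to 143 in DR and 20 to 97 over all 8 libraries, 144 to 961 for rearing in GR-Con, 17 to 622 in GR-KO and 179 to 644 over all 8 libraries, 19 to 298 for the interaction, and 0 for the differences between types. The log2 share of L5PT nuclei ranged from -2.40 to 0.20 by genotype in NR and from -0.061 to 0.85 by rearing. Of 154 values of named genes, 154 kept their call with DESeq2's size factors, 153 with a sex term, 125 among nuclei of 30000 to 60000 UMIs, 100 with DESeq2 and 30 with the quasi-likelihood test. With equal numbers of nuclei, Erbb4 turned to 0.85 by genotype in NR and 0.56 by rearing over all 8 libraries, and Kcnh5 to 0.22 by genotype in NR. No paired analysis was possible because the library names do not carry the replicate numbers of the labels, so libraries could not be paired by number. Each group held 1 male and 1 female library, and the fit with a sex term, which compares within sex, gave 281 calls for genotype in NR, 761 for rearing in GR-Con, 682 for rearing over all 8 libraries and 46 for genotype over all 8 libraries, beside the 3 counts given above.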
